A study of Caenorhabditis elegans with 2 samples.

Results

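The genes described here are the histone genes of Caenorhabditis elegans whose names start with his-, 72 of the 19973 protein-coding genes annotated on the nuclear chromosomes of WBcel235. The rule takes every gene with such a name and uses no peak value, though histone genes were taken up as a subject with earlier results of these data known. By RefSeq product name they comprise 17 H2A, 16 H2B, 20 H3 and 16 H4 genes, and 2 histone-domain genes with no single type in the product name (his-39 and his-73). The product name of the remaining gene, his-24, gives no type, and his-24 was taken as the linker histone H1 gene. They lie at 20 loci, with 2 genes on chromosome I, 14 on II, 3 on III, 22 on IV, 27 on V and 4 on X.

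The data are chromatin immunoprecipitation sequencing (ChIP-seq) peaks of HAM-2, a zinc-finger protein without which the HSN motor neurons of C. elegans do not migrate properly. Embryos of strain OP639 carried the integrated transgene wgIs639, in which HAM-2 is fused to the TY1 epitope, EGFP and 3xFLAG, with unc-119(+) as rescue in the unc-119(tm4063) mutant, and the tagged protein was precipitated with an antibody against GFP. There is 1 group of mixed-sex, mixed-stage embryos labelled 3 hours and obtained by bleaching, with 2 libraries, biological replicates 6 and 7. Control reads were not analysed here. The tagged HAM-2 was expressed from a transgene, whole embryos mix all cell types, and peak lists hold no RNA by which the tissue label could be checked.

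Histone proteins package DNA into nucleosomes, and an embryo that divides fast needs large amounts of them in each S phase. Replication-dependent histone genes of animals are short, mostly lack introns, lie in clusters of divergent pairs, and end their mRNAs in a conserved stem-loop in place of a poly(A) tail. In C. elegans the stem-loop is bound by CDL-1. Variant genes such as those for H3.3 lie apart, often have introns, and supply histone outside S phase.

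Of the 72 his genes, 56 had both features of the replication-dependent kind: another his gene within 5 kb and a perfect stem-loop within 300 bp downstream of the stop codon. These are called clustered stem-loop genes. The stem-loop is shown because it divides the genes into classes without using any peak; capitals mark the paired stem bases, on the gene's strand.
52 his genes: GGCCCTctttAGGGCC
4 his genes: GGCCCTcttaAGGGCC

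The first base of the element lay 35 to 61 bases after the stop codon. Among all protein-coding genes 60 (0.30%) carried such an element, 4 of them not his genes. The other 16 his genes lacked a perfect stem-loop, and 11 of these still lay in clusters. In his-19, his-39, his-53 and his-68 a stem with 1 mispaired base was present.

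A gene was counted when a peak summit lay in a window that starts 1000 bp before its annotated 5′ end and stops 200 bp past it. For 65 of the 72 genes that end is the start codon itself. Summits come from 4 deposited lists: the submitters' reproducible set of 1945 peaks, made by their irreproducible discovery rate threshold, the pooled list of 30000 peaks with background included, and the 2 replicate lists. The signal of a peak is the value the authors' caller gave, and it ranks peaks within a list. The reproducible set holds exactly the strongest 1945 peaks of the pooled list, from a signal of 105.3 upwards, with a median of 152.4. Signals in the pooled list start at 27.1 (median 40.3), those of replicate 6 at 17.0 and those of replicate 7 at 15.7. The sources used here do not give read depth. No test was made, since there is 1 group and genes that share a peak are not replicates.

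A reproducible summit stood at 7 of the 72 his genes (9.72%), against 4.60% of all protein-coding genes. Since divergent genes share summits, the 7 genes carried 5 distinct summits. The genes are his-67 with his-68, his-37, his-72, his-42, and his-61 with his-62. Among the upper 50% of reproducible peaks by signal only his-67 and his-68 remained, 2 of 72 (2.78%), against 2.43% of all genes, a share close to the background. In the longer pooled list, 27 of the 72 his genes (37.5%) had a summit, against 35.3% of all genes, a share close to the background. These 27 genes carried 18 distinct summits. In replicate 6 alone 23 his genes (31.9%) had a summit, against 35.1% of all genes, and in replicate 7 alone 28 (38.9%), against 33.7%. No summit in any of the 4 lists was found at 43 his genes (59.7%), against 50.6% of all genes.

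**Figure D1:**
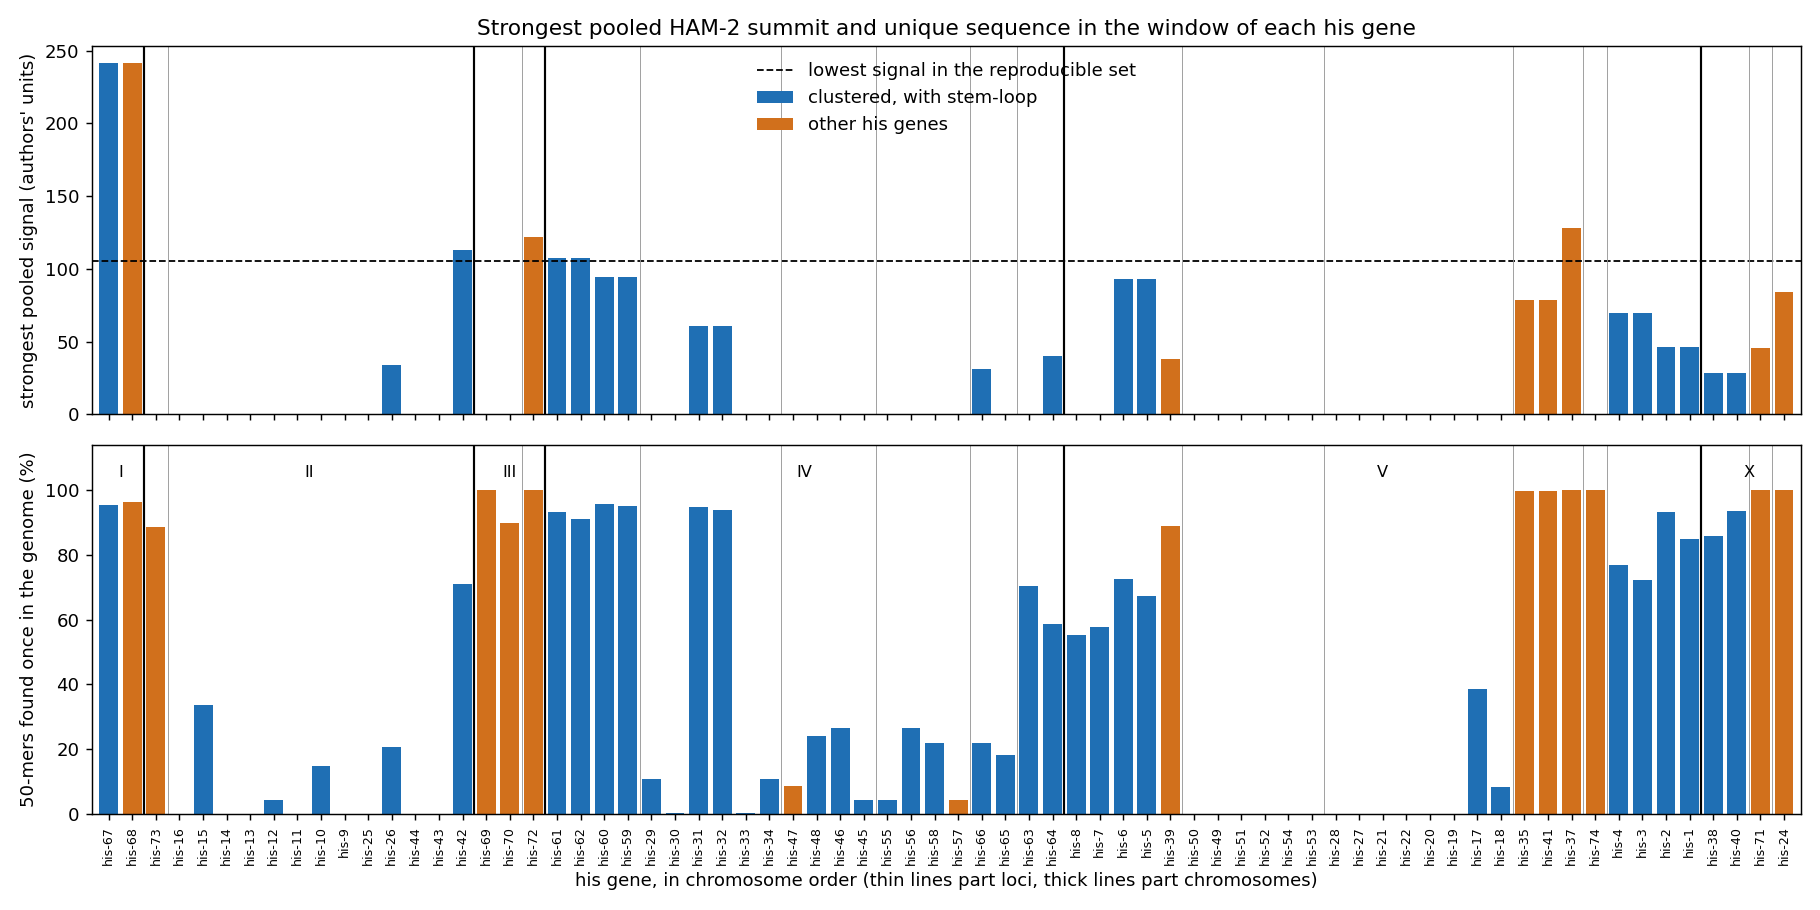
Upper panel: signal of the strongest pooled summit (authors' units) in the window of each of the 72 his genes in chromosome order, with no bar where the list holds no summit, and the dashed line at 105.3, the lowest signal of the reproducible set. Lower panel: percent of the 50-base stretches in the same window that occur at a single place in the genome. Bars above the line are his-67, his-68, his-42, his-72, his-61, his-62 and his-37; long runs of genes on II, IV and V have neither a summit nor much unique sequence.

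The copies of histone genes resemble each other, so the unique part of each window was measured from the genome itself. It is the percent of 50-base stretches (50-mers) that occur at a single place on either strand. The median over the his genes was 25.3%, against 100% over all protein-coding genes. Under 50% of the window was unique at 40 his genes (55.6%), against 498 of all genes (2.49%). Reads from repeated stretches cannot be placed with certainty by most aligners, and neither read length nor aligner is stated in the sources used here. At these genes a missing summit and reads lost in mapping cannot be told apart.

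Counts moved with this measure. Where at least 90% of the window was unique, 16 of 19 his genes (84.2%) had a pooled summit, against 37.2% of all genes in that range, and 6 of 19 (31.6%) a reproducible one, against 4.92%. The 16 genes carried 11 distinct summits and the 6 genes 4. Between 50% and 90% unique, 9 of 13 his genes (69.2%) had a pooled summit, against 23.4% of all such genes, and 1, his-42 (7.69%), a reproducible one, against 2.28%. Under 50% unique, 2 of 40 his genes had a pooled summit, his-26 and his-66, against 4.82% of all such genes, and 0 of 40 a reproducible one, against 0.402%. Both of those summits were weak, with signals of 33.8 and 31.2, and lay 884 and 902 bp upstream, where the sequence within 100 bp of the summit is fully unique. They lay past the 3′ ends of the neighbouring genes his-25 and his-65, whose 5′ ends were nearer, at 611 and 596 bp. The split by uniqueness was added after the lists had been seen, and its part in the counts was not tested.

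**Figure D2:**
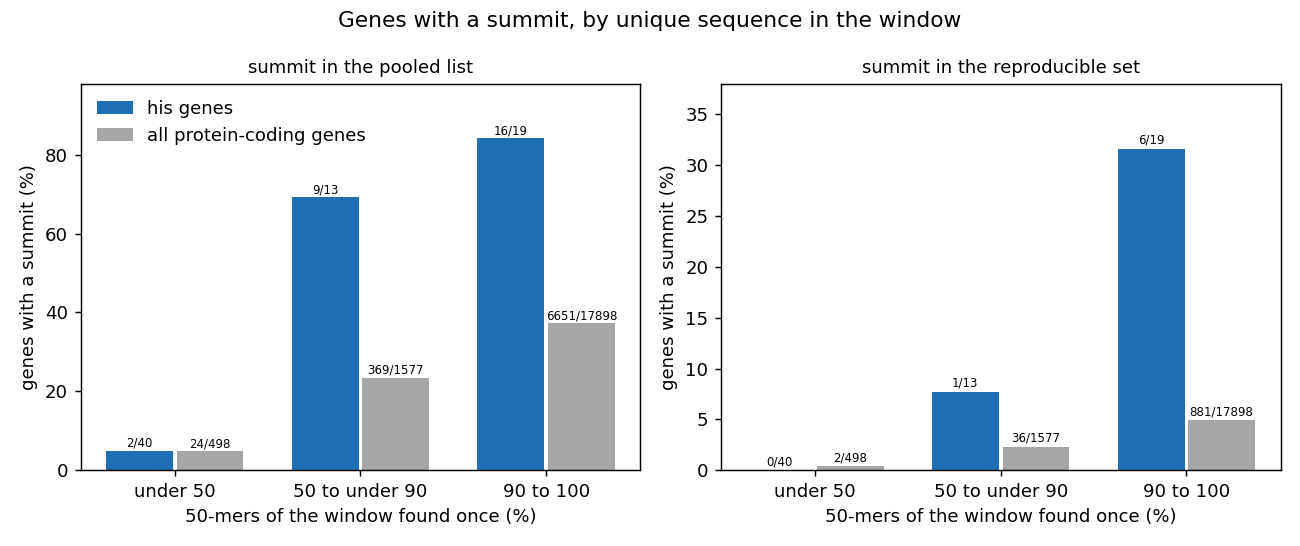
Percent of genes with a summit in the pooled list (left) and in the reproducible set (right), for his genes (blue) and all protein-coding genes (grey), by the percent of 50-mers of the window found at a single place; labels give genes with a summit over genes in the range. The his share of the pooled list is 84.2% in the most unique range, against 37.2% of all genes, and his genes under 50% unique have 2 pooled summits among 40 genes.

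Clustered stem-loop genes and the other his genes differed in this respect too. The median window was 19.4% unique for the 56 clustered stem-loop genes and 98.2% for the 16 others, and 36 of the 56 and 4 of the 16 were under 50%. A reproducible summit stood at 4 of 56 clustered stem-loop genes (7.14%, 3 distinct summits) and at 3 of 16 others (18.8%, 3 distinct summits), against 4.60% of all genes. The summit shared by his-67 and his-68 is counted in both classes. His-68 lies in a cluster and is among the others for 1 mispaired stem base. With clustering alone as the rule, added after seeing the data, 6 of 67 clustered genes and 1 other had a reproducible summit. A pooled summit stood at 19 of 56 clustered stem-loop genes (33.9%, 12 distinct summits), against 35.3% of all genes, a share close to the background. Of the 16 others, 8 had a pooled summit (7 distinct summits). Among genes at least 90% unique, all 9 clustered stem-loop genes and 7 of 10 others had a pooled summit, against 37.2% of all such genes. In each class 3 of these had a reproducible summit, against 4.92% of all such genes. The median strongest pooled signal, over genes with a summit only, was 69.9 for the clustered stem-loop genes and 81.5 for the others. Over all 27 his genes with a summit it was 79.0 (range 28.5 to 241.2), and over all protein-coding genes with one 45.9.

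By histone type the counts were small. A pooled summit stood at 4 of 17 H2A genes, 4 of 16 H2B genes, 8 of 20 H3 genes and 9 of 16 H4 genes. The share of all genes was 35.3%, with H2A and H2B below it and H3 and H4 above it. A reproducible summit stood at 2 H2A, 1 H2B, 2 H3 and 2 H4 genes, against 4.60% of all genes. H2A and H2B windows were the least unique, with medians of 4.34% and 16.3%, against 71.7% for H3 and 42.6% for H4. The H3 median includes the H3.3 variant genes. For the 15 other H3 genes it was 38.6%, with 8 windows under 50%, and 6 of the 15 had a pooled summit. The strongest gene was his-68 for H2A, his-62 for H2B, his-72 for H3 and his-67 for H4. Of the 8 his genes with more than 1 exon 6 had a pooled and 2 a reproducible summit, where 35.4% and 4.61% of all such genes did. Of the 64 his genes with 1 exon 21 had a pooled and 5 a reproducible summit, where 32.0% and 4.23% of all such genes did. These groups of his genes differ in unique sequence too, with a median of 100% for those with more exons and 21.3% for those with 1, and 1 of 8 and 39 of 64 windows under 50%; its part in the counts was not tested.

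The sequences below are those under the summits of 3 reproducible peaks, with 75 bp on either side of the summit, and the stretches between the 5′ ends of 4 divergent H3 and H4 pairs, of which the first 2 have a pooled summit and the last 2 none. They were read from the RefSeq genome of WBcel235 (the same assembly as ce11), and capitals mark the 8-base words ATGTGTCC, ACATTCGG and AGGCGGAG on either strand, described further on.
his-61, chrIV:7486347-7486497, minus strand: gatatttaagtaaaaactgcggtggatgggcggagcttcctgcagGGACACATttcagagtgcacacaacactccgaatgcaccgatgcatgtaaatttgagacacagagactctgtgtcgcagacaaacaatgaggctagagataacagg
his-37, chrV:9546911-9547061, plus strand: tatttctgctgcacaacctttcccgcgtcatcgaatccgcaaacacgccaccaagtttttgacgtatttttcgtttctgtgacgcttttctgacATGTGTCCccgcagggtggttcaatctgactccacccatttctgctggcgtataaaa
his-42, chrII:13829451-13829601, minus strand: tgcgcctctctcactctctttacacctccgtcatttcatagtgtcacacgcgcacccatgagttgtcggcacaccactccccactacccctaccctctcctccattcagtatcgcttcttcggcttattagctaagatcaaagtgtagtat
his-6 to his-5, chrV:8534978-8535213, plus strand: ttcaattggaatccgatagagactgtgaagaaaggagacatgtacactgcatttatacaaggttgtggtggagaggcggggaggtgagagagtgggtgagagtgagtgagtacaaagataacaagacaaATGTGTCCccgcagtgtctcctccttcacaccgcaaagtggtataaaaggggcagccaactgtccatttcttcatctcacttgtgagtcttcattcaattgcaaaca
his-2 to his-1, chrV:16042284-16042519, plus strand: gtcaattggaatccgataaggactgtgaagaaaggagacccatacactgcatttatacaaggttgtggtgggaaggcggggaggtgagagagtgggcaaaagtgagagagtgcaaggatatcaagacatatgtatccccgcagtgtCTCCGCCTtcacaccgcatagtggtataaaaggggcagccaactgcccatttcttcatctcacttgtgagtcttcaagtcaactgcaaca
his-50 to his-49, chrV:8847705-8847942, plus strand: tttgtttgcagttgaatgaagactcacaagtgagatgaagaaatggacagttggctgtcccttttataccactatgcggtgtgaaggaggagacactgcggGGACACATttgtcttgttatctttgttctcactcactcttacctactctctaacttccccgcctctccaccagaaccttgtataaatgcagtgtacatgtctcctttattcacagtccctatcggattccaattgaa
his-28 to his-27, chrV:8889800-8890037, plus strand: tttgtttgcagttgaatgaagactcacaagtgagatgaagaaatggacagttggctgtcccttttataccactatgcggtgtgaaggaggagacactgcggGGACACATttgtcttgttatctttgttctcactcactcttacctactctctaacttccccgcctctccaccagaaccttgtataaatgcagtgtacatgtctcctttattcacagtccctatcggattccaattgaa

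The strongest summit at any his gene lay between his-67, an H4 gene with the stem-loop, and his-68, an H2A gene whose stem has 1 mispaired base. The peak, chrI:9988908-9989014, had a pooled signal of 241.2 (rank 390 of the list), with 146.1 in replicate 6, where it ranked 416, and 100.3 in replicate 7, where it ranked 325. The summit was 180 bp upstream of his-67 and 189 bp upstream of his-68, and it is also the strongest in the window of alg-5, an Argonaute gene, 859 bp away. It ranked above every other his gene in both replicates, and the pair is the only one of an H2A with an H4 gene.

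The next signal belonged to his-37, an H4 gene with 2 exons and no stem-loop. Its peak, chrV:9546776-9547195, had a pooled signal of 128.2 (rank 1358), 91.3 in replicate 6 at rank 1113 and 38.5 in replicate 7 at rank 3203. The summit was 119 bp upstream of the gene, in sequence that is fully unique. Replicate 6 placed this peak among its strongest 1945 and replicate 7 did not.

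His-72, which encodes an H3.3 variant, had its summit 49 bp inside the gene, in the peak chrIII:12368942-12369052. The pooled signal was 122.1 (rank 1474), with 77.8 at rank 1493 of replicate 6 and 47.2 at rank 1797 of replicate 7. Both replicates held it among their strongest 1945 peaks. The other 4 H3.3 genes were lower or had none. His-71 had a pooled signal of 45.6 (rank 11408), 704 bp upstream, with 33.2 in replicate 6 and 23.2 in replicate 7. His-69, his-70 and his-74 had no summit in any of the 4 lists, although their windows are at least 90% unique.

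His-42, a clustered H3 gene with the stem-loop, was counted through a distant summit. Its peak, chrII:13829316-13829735, had a pooled signal of 113.2 (rank 1692), with 66.8 at rank 2017 of replicate 6 and 43.4 at rank 2230 of replicate 7. The summit lay 829 bp upstream of his-42 but only 35 bp from the small nuclear RNA gene F08G2.10. The sequence within 100 bp of the summit is 66.45% unique. Without summits within 250 bp of tRNA, snRNA, snoRNA, rRNA or miRNA genes, his-42 is no longer counted. Its sequence above holds none of the 3 words.

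His-61 and his-62, an H2A and H2B pair with stem-loops, shared the peak chrIV:7486212-7486631. Its pooled signal was 107.3 (rank 1874), just inside the reproducible set. The replicates differed: the signal was 74.9 in replicate 6, at rank 1600, and 28.5 in replicate 7, at rank 8048. The summit was 205 bp upstream of his-61 and 123 bp upstream of his-62, at nearly the same base in every list.

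Just outside the reproducible set came the neighbouring pair his-60 (H4) and his-59 (H3), with a pooled signal of 94.2 (rank 2388) at a summit 160 bp inside his-60. In replicate 6 their strongest signals were 30.1 and 47.0 at different places. The summit of 47.0 lay inside his-60 but past the 200 bp limit of the his-60 window, so it counted for his-59 only. In replicate 7 both had 48.8 at a shared place. His-6 (H3) and his-5 (H4) shared a pooled signal of 93.2 (rank 2442), 28 bp upstream of his-5, with 40.6 (rank 4967) in replicate 6 and 55.9 (rank 1191) in replicate 7. Here replicate 7 gave the higher rank, against replicate 6 at his-61 and his-37.

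The H1 gene his-24 had a pooled signal of 83.9 (rank 3001), 189 bp inside the gene, with 39.0 (rank 5392) in replicate 6 and 45.1 (rank 2029) in replicate 7. His-35, an H2A gene without the stem-loop, and the H2B gene his-41 shared a pooled signal of 79.0 (rank 3329), which is also the strongest at the neighbouring gene C50F4.6. Its summit lay 153 bp inside his-41. For his-35 the signal was 51.5 in replicate 6 and 27.5 in replicate 7. His-41 had a summit in its window in replicate 7 but none in replicate 6. The replicate 6 summit of his-35, 465 bp upstream of that gene, lay inside his-41 but past the 200 bp limit of the his-41 window.

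The remaining pooled summits were weaker. His-4 and his-3 shared 69.9, his-31 and his-32 60.6, his-2 and his-1 46.25, and his-38 and his-40 28.5. Single summits stood at his-64 (40.0) and his-39 (37.9), besides his-26 and his-66. The sequence within 100 bp of the summit is 23.7% unique at his-64 and 98.7% at his-39. For the 8 weakest of the 18 distinct summits, from his-31 and his-32 down, the authors' −log10 q-value was under 1, against 3.64 at all 5 reproducible ones. The pooled list includes background by design.

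Measured to the nearest his gene, 8 of the 18 summits lay upstream of that gene's 5′ end and 10 downstream of it. The distance ran from 28 to 829 bp with a median of 156.5 bp, and 12 of 18 were within 250 bp.

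Between the replicates, 23 his genes had a summit in both lists, at 17 distinct combinations of signals. The signals of those 17 correlated with a Spearman's rho of 0.48 and a Pearson's r of 0.63 on the log2 scale, a description across summits of the same 2 libraries. In 10 of the 17 the summits of both replicates lay within 100 bp. Among the strongest 1945 peaks of each replicate, 6 his genes had a summit in replicate 6, against 4.80% of all genes, and 7 in replicate 7, against 3.84%. His-67, his-68 and his-72 are the 3 genes counted in both. Of the 7 genes of the reproducible set, replicate 7 lacks his-37, his-42, his-61 and his-62 among its strongest and has his-5, his-6, his-59 and his-60 in their place, and replicate 6 lacks his-42. A summit in replicate 7 without one in replicate 6 was seen at 5 genes, the reverse at 0, and neither at 44. The 5 include his-41, where the summit of a replicate 6 peak lay just past the window.

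**Figure D3:**
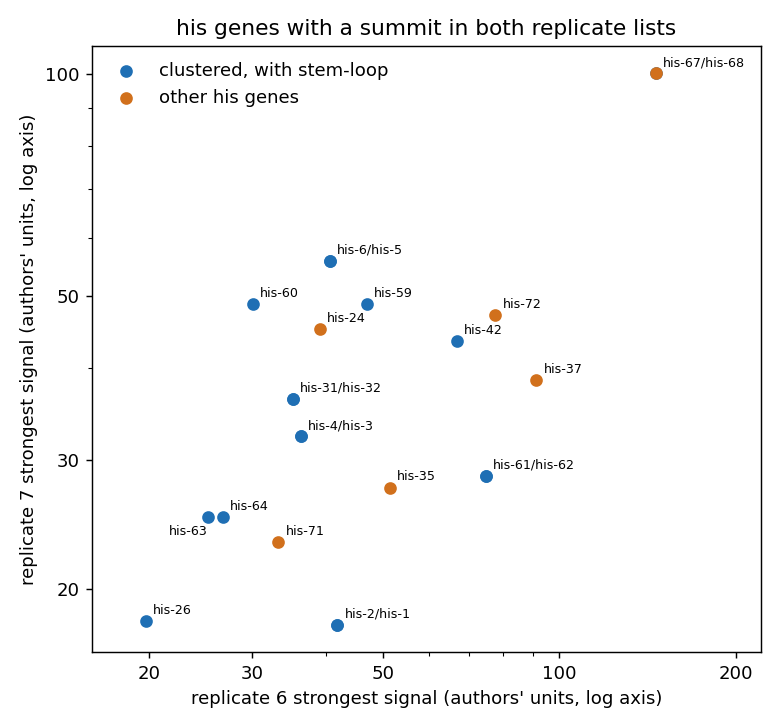
Signal of the strongest summit in replicate 6 (horizontal, log axis) and replicate 7 (vertical, log axis), in authors' units, for the 23 his genes with a summit in both lists; blue points are clustered stem-loop genes, orange points other his genes, and the point of his-67 and his-68 stands for 1 gene of each class. His-67 and his-68 are highest in both, and his-61, his-62 and his-37 are high in replicate 6 with 28.5 and 38.5 in replicate 7.

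Divergent promoters are the usual arrangement of these genes, and 62 of the 72 formed 31 divergent pairs: 16 of H2A with H2B, 14 of H3 with H4, and the single H2A and H4 pair. Their 5′ ends were 228 to 369 bp apart, with a median of 259 bp, so the windows of the partners largely overlap. In 9 pairs (29.0%) both genes had the same strongest pooled summit, against 44.3% of the 334 divergent protein-coding pairs with the same range of spacing, his pairs included. In 2 of the 31 the shared summit was reproducible, against 8.38% of the 334. With a window of 500 bp upstream and 100 bp downstream, 5 pairs shared a summit. A further 3 pairs had a summit at 1 partner only, and 19 pairs had none. By type, 3 of 16 H2A and H2B pairs and 5 of 14 H3 and H4 pairs shared a summit, besides his-67 and his-68. The shared pooled summit lay between the 5′ ends in 5 pairs and inside a gene in 4. One of these 4, that of his-4 and his-3, lay elsewhere in the replicates. Both replicates placed it between the 5′ ends, 79 bp upstream of his-4 and 214 bp upstream of his-3.

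Whether a pair shared a summit moved with the unique sequence between its 5′ ends. Of the 10 pairs with at least 90% unique sequence between the 5′ ends, 9 shared a summit, against 48.5% of all 301 such pairs at that spacing, his pairs included. The 2 pairs with a shared reproducible summit are both among these 10, against 8.97% of the 301. The tenth, his-63 and his-64, had a pooled summit in the his-64 window only, 677 bp upstream of his-64. That summit lay past the 3′ end of his-63, whose 5′ end was nearer, at 422 bp. It was beyond the 200 bp limit of the his-63 window. The pair his-8 and his-7, 85.6% unique between, had none. Inside a gene, outside the stretch measured, lay 4 of the 9 shared summits. The sequence within 100 bp was fully unique at those of his-60 and his-59 and of his-35 and his-41. It was 72.4% unique at that of his-4 and his-3 and 80.9% at that of his-38 and his-40. Of the 20 pairs under 50% unique, 0 shared a summit, and 17 of them had no unique 50-mer between the 5′ ends at all. The stretches printed above for his-50 to his-49 and his-28 to his-27 show what that means: each is 238 bases long, they lie at different loci of chromosome V, and they differ at 0 bases. The stretches of his-6 to his-5 and his-2 to his-1 are 97.9% and 100% unique, and both pairs shared a summit.

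**Figure D4:**
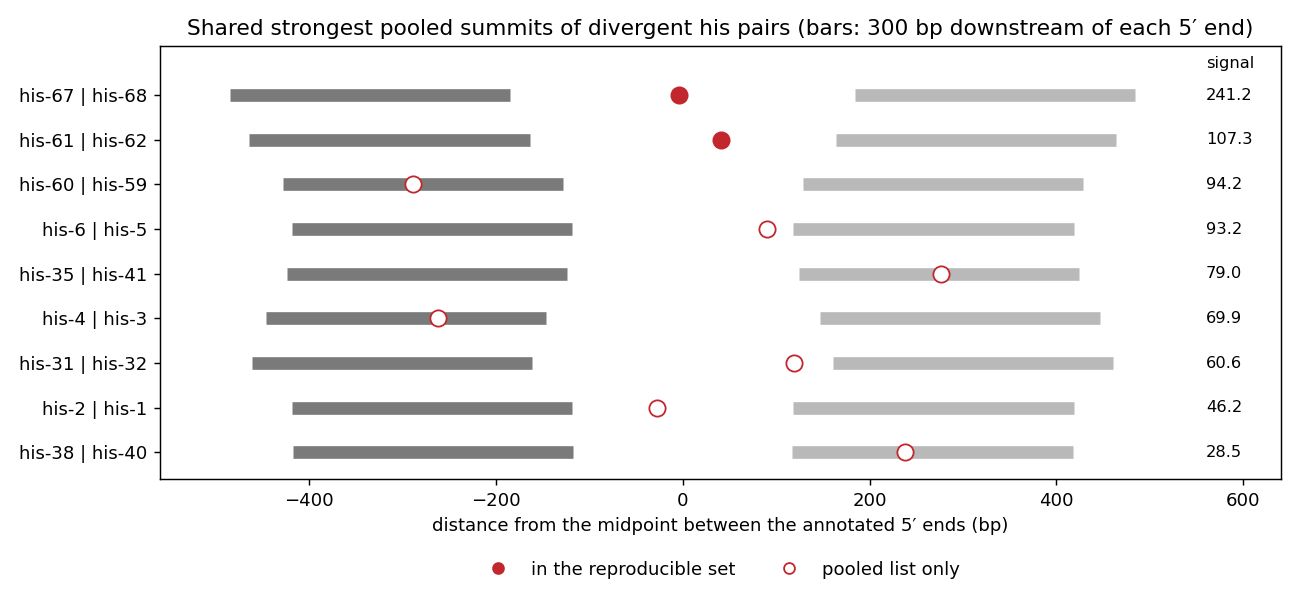
Position of the shared strongest pooled summit in the 9 divergent pairs that share one, as distance in bp from the midpoint between the annotated 5′ ends; grey bars are the first 300 bp of the minus-strand gene (left) and of the plus-strand gene (right), filled points are in the reproducible set and open points in the pooled list only. The summits of his-67 with his-68 and his-61 with his-62 lie between the 5′ ends, and 4 of the weaker ones lie inside a gene. For his-4 with his-3, both replicates place the summit between the 5′ ends.

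Words of 8 bases in the 200 bp upstream of the 5′ end were counted on either strand, and the 3 shown in capitals were picked after counting because many clustered stem-loop genes hold them. ATGTGTCC was present at 36 of 56 clustered stem-loop genes (64.3%), 5 of 16 other his genes and 115 of all 19973 genes (0.576%). ACATTCGG was present at 31 of the 56 (55.4%), 5 of the 16 and 99 of all genes (0.496%), and AGGCGGAG at 30 of the 56 (53.6%), 1 of the 16 (his-72) and 253 of all genes (1.27%). The TATA word TATAAA was present at 30 of the 56 (53.6%), 7 of the 16 (43.8%) and 6067 of all genes (30.4%). Since the promoters are copies of each other, these counts are not independent.

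Genes with and without a summit both held the words. ATGTGTCC stood at 12 of 19 clustered stem-loop genes with a pooled summit and at 24 of 37 without. ACATTCGG stood at 4 of 19 with and 27 of 37 without, and AGGCGGAG at 10 of 19 and 20 of 37. However, 34 of the 37 genes without a summit had windows under 50% unique, against 2 of the 19 with one. There a missing summit and reads lost in mapping cannot be told apart. These counts therefore do not show whether the words go with summits. ATGTGTCC lay within 500 bp of 8 of the 18 distinct summits. Among the reproducible ones it was 23 bp from that of his-37, 27 bp from that of his-61 and his-62 and 52 bp from that of his-67 and his-68, and those of his-72 and his-42 had none within 500 bp. Among the others it was 76 bp from that of his-6 and his-5, 79 bp from that of his-31 and his-32, and 228 to 273 bp from those of his-4 and his-3, his-24, and his-60 and his-59. These distances were taken for ATGTGTCC only, with no share over all summits beside them. The word was picked for its frequency at these promoters, so nearness to their summits is no independent sign of a link. A match is a description of the letters and does not show what binds there.

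The genes without a pooled summit, 45 in all, lay largely in repeated clusters. On chromosome V, the locus of his-49 to his-54 (6 genes) and that of his-17 to his-22 with his-27 and his-28 (8 genes) had none. On chromosome II, 11 of 13 genes of the his-9 to his-16, his-25, his-26 and his-42 to his-44 cluster had none, and on IV none stood at the 2 loci of 4 genes with his-45 to his-48 and with his-55 to his-58. The H2A genes his-47 and his-57 of these loci lack the stem-loop and had none either. By contrast, all 4 genes of the his-59 to his-62 locus on IV and all 4 of the his-1 to his-4 locus on V had a summit. In all, 13 of the 20 loci held at least 1 pooled summit.

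A list of 24 genes for other histone variants and for histone supply gave 3 with a reproducible summit (12.5%) and 13 with a pooled one (54.2%), against 4.60% and 35.3% of all genes. The strongest was hil-7, a linker histone H1-like gene, with a pooled signal of 439.9 (rank 88) 3 bp inside the gene, 262.0 (rank 97) in replicate 6 and 180.6 (rank 86) in replicate 7, above every his gene in each list. Unc-85, an ASF1-type histone chaperone gene, had a pooled signal of 150.1 (rank 1000) 480 bp upstream, with 106.6 in replicate 6 and 46.4 in replicate 7. Lin-53, which encodes an RbAp46/48-type histone-binding protein, had 146.7 (rank 1039) 267 bp upstream, with 100.9 in replicate 6 and 45.8 in replicate 7. Below the reproducible set came chaf-2 (83.8), a chromatin assembly factor gene, htz-1 (82.3), the H2A.Z variant, hcp-3 (71.2), the centromeric H3, and cdl-1 (67.7), whose product binds the histone stem-loop. All 24 windows were at least 73.7% unique, and the median pooled signal of the 13 was 67.7. With 24 genes and no test, these shares describe this list only.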

How the data were processed

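ChIP-seq of GFP-tagged HAM-2 was available as peak lists from 2 biological replicates of 1 group. Per the deposited listing, each replicate list and the pooled list were called against a control alignment, and the reproducible set came from the authors' irreproducible discovery rate threshold; assembly ce11, per the labels. Neither the aligner nor the peak caller is named in the sources used here, and read depth is missing too, which leaves the precision of each signal unknown. The control was not analysed here. Chromatin was sonicated to 200 to 800 bp, per the labels. Signal values were deposited by the authors with no stated scaling against depth. The −log10 q-value and the summit offset in bases are also the authors' deposited values.

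His genes were found by RefSeq symbol, since Ensembl release 115 gives them 50 distinct names; all 72 matched by gene ID. Annotated 5′ ends came from Ensembl. The last peak lay inside the chromosome in all 24 pairs of list and chromosome. For each gene the strongest summit from 1000 bp upstream to 200 bp downstream was taken. Clusters (5 kb), divergent pairs (5′ ends within 2000 bp) and the stem-loop (6 paired bases, loop of 4, within 300 bp of the stop codon) came from annotation and genome. Unique 50-mers were counted over both strands of the whole genome; stretches of 36 and of 100 bases put the same number of his genes, 40, under 50%. Alternatives were other windows, stricter and looser peak sets, other cluster distances, each replicate alone and no noncoding neighbours. The members and lists were chosen with earlier results of these data known. By rule, the text names his genes with a reproducible summit, the 6 strongest without one, the strongest of each type, the variant genes, genes without a pooled summit, and supply genes with a reproducible summit or among the next 4. Other his genes were named after their values were seen. Procedures were tested on simulated data. Software was Python 3.11.15 with matplotlib 3.10.9, scipy 1.17.1, pandas 2.3.3 and numpy 2.4.6.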

Additional observations from a re-analysis of the deposited data

How the results depend on the processing

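Of 91 alternative values, 62 counts stayed within 1.5 times the main one and 29 values moved, the median signal being called moved past the SD of the 2 replicates' medians. With 500 bp upstream and 100 bp downstream, 6 his genes (8.33%) were reproducible, against 3.24% of all genes, and 1 of them was an H3 gene. The median pooled signal was then 69.9 and 5 divergent pairs shared a summit. With 2000 and 500 bp, 9 his genes (12.5%) and 6 of the 24 supply genes were reproducible, against 6.89% of all genes. The median at that window was 60.6. Taking the upper 50% of reproducible peaks left 2 his genes (2.78%) at 1 summit, against 2.43% of all genes, 1 clustered stem-loop and 1 other, 1 H2A, 0 H2B, 0 H3 and 1 H4. Taking the 3890 strongest pooled peaks gave 14 his genes (19.4%) at 9 summits, against 8.09% of all genes, with 8 clustered stem-loop and 6 others, 2 H2B, 4 H3 and 4 H4, and 5 supply genes. Without noncoding neighbours 1 H3 gene stayed. Without the stem-loop in the class rule, added after seeing the data, 6 clustered his genes and 1 other were reproducible. Among windows at least 90% unique, also added, 16 had a pooled summit. Leaving out each replicate gave 1 to 2 H2A, 0 to 1 H2B and 1 to 3 H3 genes and medians of 30.4 to 40.6, on each list's own scale. No cause was tested. Without replicate 6 the count stayed at 7, but his-37, his-42, his-61 and his-62 left and his-5, his-6, his-59 and his-60 entered; without replicate 7 his-42 left. No paired analysis was possible because there is 1 group only. Depth is unknown, read length is unknown, and genes under 50% unique cannot be judged from these lists.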
